A study of Mus musculus with 6 samples.

Results

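Cohesin is a ring-shaped protein complex that holds sister chromatids together from DNA replication until anaphase. The ring has 4 positions: an SMC1 subunit, SMC3, a kleisin that closes the ring, and a STAG subunit bound to the kleisin. Cells that divide by mitosis use SMC1A, RAD21, and STAG1 or STAG2, while germ cells also make the meiotic forms SMC1B, REC8, RAD21L and STAG3. In oocytes the ring is loaded on chromosomes before birth and has to last until ovulation, and its loss with age is a known source of wrong chromosome numbers in eggs.

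The members described here are the 9 genes of these subunits, taken by gene symbol: Smc1a, Smc1b, Smc3, Rec8, Rad21, Rad21l, Stag1, Stag2 and Stag3. All 9 are among the 25239 genes of the count table, 8 had a count in at least 1 library, and 3 (Smc3, Smc1a and Rad21) passed the filter on low counts, as did 4644 genes in all. The 6 libraries, full-length cDNA of polyA RNA made with Smart-seq3, are single oocytes at the germinal vesicle (GV) stage, when the nucleus is intact and meiosis is arrested, from females of the outbred strain CD-1 aged 4 to 6 weeks. Oocytes were injected inside their cumulus cells, 3 with water and 3 with a mixture of phthalate metabolites, breakdown products of plasticizers, and all were then kept in the same maturation medium with follicle-stimulating hormone. The compounds of the mixture and their dose are not given in the labels, and "WT" in the column names stands for the water oocytes. The design asks how the mixture changes the oocyte transcriptome. No animal or culture is named for any oocyte, so each group counts as 1 sample, no test over oocytes was made, and the values of single oocytes are given instead. The titles name each library as an oocyte, and that word is used here, but the protocol can also be read as 1 oocyte for each group. In that case the 3 libraries of a group would be technical repeats, and values that do not overlap would separate 2 cells only.

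The libraries held 252267 to 300917 gene counts each, and 292 to 753 counts of ERCC spike-ins. All 14 oocyte markers had counts in these libraries, with summed levels of 29095 to 31973 CPM (a gene's share of the library total, scaled to parts per 1000000, with totals adjusted by the TMM method) in the water oocytes and 26876 to 33879 in the phthalate oocytes. Of 20 cumulus and granulosa markers 8 were at 0, among them Amh, Foxl2, Ptx3 and Tnfaip6. The list summed to 423 to 489 CPM in the water oocytes and 414 to 483 in the phthalate oocytes, and most of it came from Serpine2 (93 to 116 counts per oocyte) and Nr5a2 (8 to 32). The other 18 had 0 to 11 counts in a water oocyte and 5 to 10 in a phthalate oocyte. The 4 markers of S phase and mitosis (Mki67, Top2a, Pcna, Mcm2) summed to 471 to 490 CPM in the water oocytes and 381 to 587 in the phthalate oocytes, and all 3 blood markers were at 0. Their part in the cohesin values was not tested.

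Genes that serve the same position of the ring are paralogs, so reads could be counted to the wrong one if their sequences were alike. The longest stretch that the longest transcripts of 2 paralogs share is shown here, in capitals, for the closest pair at the SMC1 position, the STAG position and the kleisin position (GENCODE M21 transcripts, GRCm38). The SMC1 stretch lies in exon 6 of both genes, at chrX:152027713-152027735 (plus strand) in Smc1a and at chr15:85121806-85121828 (minus strand) in Smc1b. The STAG stretch lies in exon 12 of both, at chr9:100848680-100848702 in Stag1 and chrX:42229340-42229362 in Stag2, both on the plus strand. The kleisin stretch lies at chr15:51966612-51966628 in exon 12 of Rad21 and at chr2:151655309-151655325 in exon 8 of Rad21l, both on the minus strand. All are coding.
Smc1a and Smc1b: AATCAGAAGAGGCCTCAGTACAT
Stag1 and Stag2: CTTGACAAAGAATATGATGTTGC
Rad21 and Rad21l: AGGAGAAGGAAAAAGAG

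On GRCm38 the SMC genes lie at chrX:152016428-152062694 (Smc1a, plus strand), chr15:85064689-85131964 (Smc1b, minus) and chr19:53600398-53645833 (Smc3, plus). The kleisins lie at chr15:51962240-51991747 (Rad21, minus), chr2:151645404-151668533 (Rad21l, minus) and chr14:55618037-55625395 (Rec8, plus). The STAG genes lie at chr9:100597798-100959375 (Stag1), chrX:42149317-42277185 (Stag2) and chr5:138280240-138312393 (Stag3), all on the plus strand. The shared runs of 23, 23 and 17 bases are short beside the reads of 150 bp. Over windows of 50 bases, the transcripts of Smc1a, Smc1b, Rec8, Rad21, Rad21l, Stag1 and Stag2 shared none with another gene, on either strand. Smc3 shared 1.56% of its windows with 3 other genes, AC154766.2, Gm11204 and Gm29763, and Stag3 shared 0.0649%. In GENCODE no exon of another gene overlaps an exon of the longest transcript of a member. The RefSeq gene spans of the same build overlap those of other genes, leaving pseudogenes aside, by 459 bases for Smc1a with Ribc1 (19 counts in the water group, 45 in the phthalate group), by 52892 for Smc1b with Fam118a (54 and 53 counts) by 2564 for Rad21 with Gm52217, and by 6370 and 544 for Stag3 with Gpc2 (2 and 0 counts) and Gal3st4 (0 counts in both groups). The use of strand in counting is not given in the sources used here.

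Promoter windows (250 bases before the start and 50 from it, RefSeq, GRCm38.p6) were available for 7 of the 9 genes and were searched on both strands for TCCCGC, the core bound by E2F factors, because E2F6 is known to silence Smc1b and Stag3 outside the germ line. It was found in 6 of 7, in Smc1a, Smc1b, Smc3, Rec8, Stag1 and Stag3, and not in the window of Rad21l. Of all 32851 windows 20% hold it. Of the 9764 windows with at least 18 CG dinucleotides, as these 6 have, 47.7% do, a comparison chosen after the data were seen. The matches of the 3 meiotic genes are shown with the motif in capitals, from Smc1b at chr15:85131979-85132024 (minus strand), Stag3 at chr5:138280487-138280532 and Rec8 at chr14:55618108-55618153 (plus strand).
Smc1b: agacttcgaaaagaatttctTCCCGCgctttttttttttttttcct
Stag3: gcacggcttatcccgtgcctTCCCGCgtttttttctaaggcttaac
Rec8: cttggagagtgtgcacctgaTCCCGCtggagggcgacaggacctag

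The motif begins 47, 2 and 38 bases before the annotated start in these genes, and a match is a description, not a shown binding site. The genes that hold it covered the whole range of levels below, from Smc3, the highest subunit, to Rec8, which had no count. The E-box CACGTG was found in Stag3 alone of the 7 windows and in 7.15% of all windows. CCAAT was also found in 6 of the 7, beside 37.4% of all windows, and TATAAA in 0 of the 7, beside 13.6%.

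Levels were compared between genes as CPM per kb of the longest transcript. For Stag3 that transcript, also used for the sequence comparisons above, is annotated as a retained intron. Those of the other subunits are annotated as protein-coding. Smc3 was the highest, with 73.4, 81.7 and 69.1 with water (oocytes 1, 2 and 3 in this order throughout) against 64.5, 65.6 and 56.9 with the mixture. It lay above 91.4% of the 12543 genes with a count and a transcript length. Smc1a followed at 21.5, 30.1 and 18.0 with water against 16.5, 33.2 and 26.5 with the mixture, and Rad21 at 18.2, 22.9 and 21.4 against 14.7, 10.1 and 9.84. The ranges of Smc1a and Rad21 overlapped over the 6 oocytes, while that of Smc3 lay above both. Summed over oocytes, Smc3 was 2.81-fold above Smc1a and 4.23-fold above Rad21 per length.

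The other subunits lay lower. Smc1b had 8.0, 9.13 and 6.10 CPM per kb with water against 5.73, 4.10 and 8.65 with the mixture, all below every Rad21 value. Stag1 had 4.65, 5.43 and 4.56 with water against 9.37, 3.22 and 3.14 with the mixture, and Stag2 had 4.66, 2.18 and 5.71 against 3.76, 5.37 and 2.52. From Smc1b downward each gene's range overlapped that of the next in the order, which went on with Rad21l, Stag3 and Rec8. With the mean length over transcripts, Stag1 and Smc1b changed places.

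**Figure D1:**
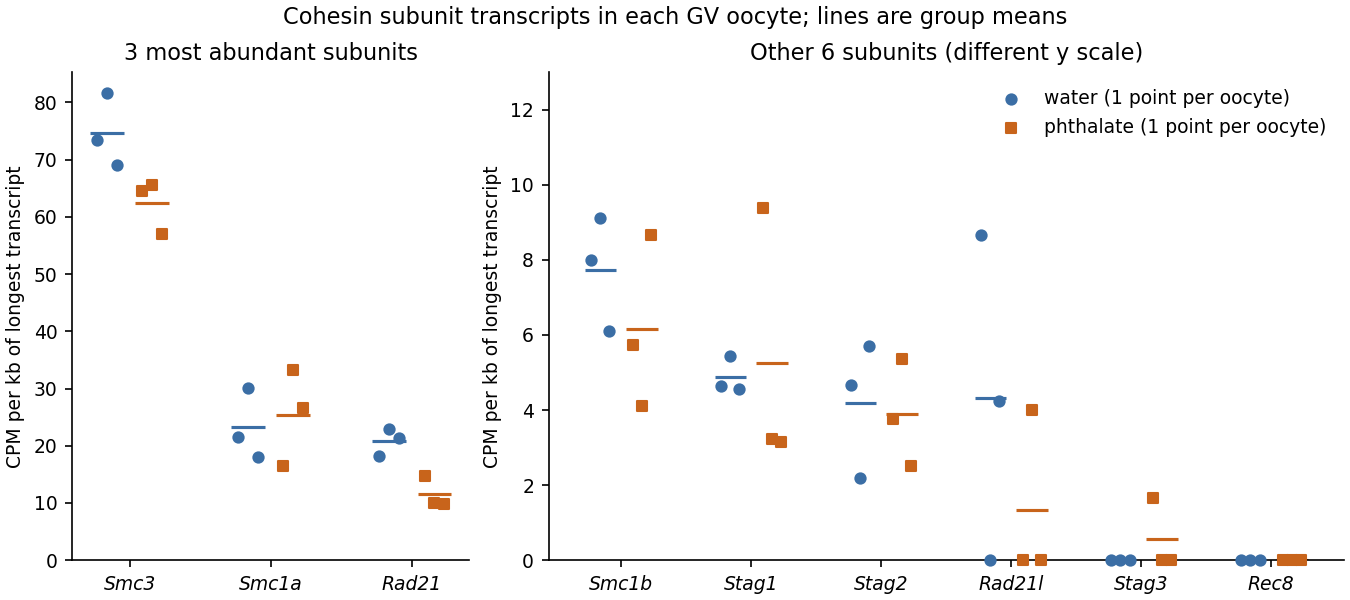
Level of each subunit in CPM per kb of the longest transcript (y axes, which differ in scale) in single oocytes (points), with group means (lines). For Smc3 and Rad21 the 3 phthalate points lie below the 3 water points, and Rec8 is at 0 in all 6 oocytes.

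Among the kleisins nearly all counts were those of Rad21. Rec8, the kleisin whose cleavage by separase lets homologous chromosomes part, had 0 counts in all 6 libraries. A count of 0 allows up to 3 counts in a group (a one-sided 95% limit, unlike the two-sided intervals given elsewhere), or 3.51 CPM for water and 3.65 for phthalate, so low Rec8 RNA was not detectable at this depth. Over all 6 libraries, 0 counts allow up to 3 in all, and at that limit Rec8 was at least 19.9-fold lower than Rad21 per length. If both mates of a pair were counted, a limit of 3 read pairs gives 7.02 and 7.30 CPM in the groups and at least 9.94-fold over the 6 libraries. Rad21l, a kleisin known from meiotic prophase, had 4, 0 and 2 counts with water against 0, 2 and 0 with the mixture. It was seen in 3 of 6 oocytes, with values that overlap between the groups. Of the kleisin counts, Rec8 and Rad21l together held 6 of 77 in the water group (7.79%, 95% exact binomial interval 2.91 to 16.2) and 2 of 39 in the phthalate group (5.13%, 0.627 to 17.3). Per length, since Rad21l is the shortest of these transcripts, the shares were 16.8% and 11.4%, and single oocytes ranged from 0 to 32.3%.

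At the STAG position the meiotic form had few counts too. Stag3, the STAG subunit of meiotic rings, had 2 counts, both in phthalate oocyte 1, which is 1 read pair if both mates were counted. That is 2 of 96 STAG counts, a share of 2.08% (0.253 to 7.32). Stag1 and Stag2, the mitotic forms, had 52 and 42 counts over all oocytes.

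Smc1b was the one meiotic subunit with counts in every oocyte. It had 9, 11 and 7 counts with water against 6, 5 and 9 with the mixture. Its share of the SMC1 counts was 24.3%, 20.8% and 22.6% with water against 23.1%, 9.62% and 22.0% with the mixture, so that phthalate oocyte 2 stood low and the others lay close together. The group shares were 22.3% (15.2 to 30.8) and 16.8% (10.6 to 24.8), a difference of -5.51 percentage points with a Newcombe interval from -15.5 to 4.59. Per length the difference was -6.00 points, and 0.0800 without phthalate oocyte 2. All these intervals cover counting error only.

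**Figure D2:**
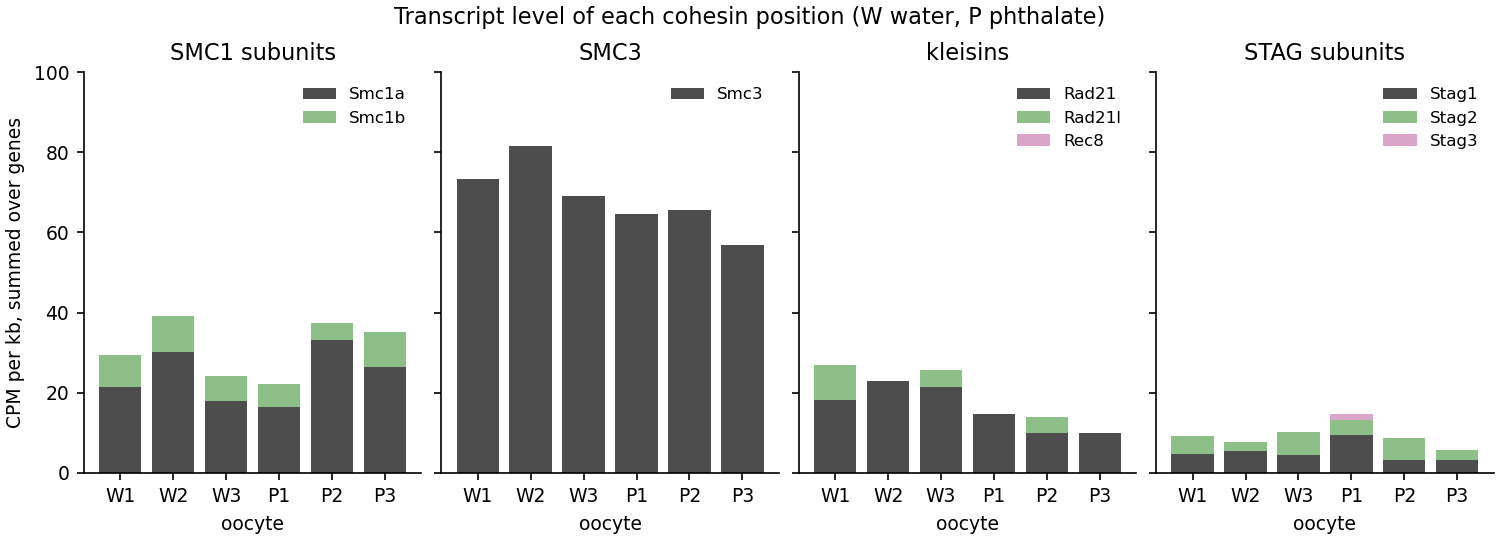
Summed CPM per kb (y axis) at each position of the cohesin ring in water oocytes W1 to W3 and phthalate oocytes P1 to P3, with bars split by gene. SMC3 is the highest position in every oocyte, and the kleisin bars range from 22.9 to 26.9 in water and from 9.84 to 14.7 in phthalate oocytes.

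By position, SMC3 transcripts exceeded those of the other ring parts in every oocyte. The SMC1 genes summed to 24.1 to 39.2 CPM per kb in the water oocytes and 22.2 to 37.3 in the phthalate oocytes, which overlap. STAG genes summed to 7.61 to 10.3 and 5.67 to 14.8, which overlap too. Smc3 stood 2.73, 3.56 and 2.69 times above the kleisins with water, and 4.40, 4.67 and 5.79 times with the mixture. This ratio, taken within an oocyte, needs no scaling between libraries, and the groups did not overlap. Smc3 stood 2.49, 2.08 and 2.86 times above the SMC1 genes with water, and 2.91, 1.76 and 1.62 times with the mixture. Above the STAG genes it stood 7.88, 10.7 and 6.72 times, and 4.36, 7.64 and 10.0 times with the mixture. Both of these ratios overlapped between the groups.

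Between the groups, Rad21 showed the largest difference of the subunits that passed the filter. RAD21 is the kleisin of mitotic cohesin and is also cut by separase. Its counts were 20, 27 and 24 with water against 15, 12 and 10 with the mixture, or 72.0, 90.7 and 84.6 against 58.0, 39.8 and 38.9 CPM. All 3 phthalate oocytes lay below all 3 water oocytes, and phthalate oocyte 1 was the closest to them. The sums were 71 counts (95% exact Poisson interval 55.5 to 89.6) and 37 (26.1 to 51.0). Rad21 was thus 1.83-fold lower in the phthalate group, a log2 ratio of -0.87 with a 95% counting interval from -1.48 to -0.28, or from -1.83 to -0.07 when counts are halved to read pairs. For each 100 Smc3 counts there were 20.2, 22.9 and 25.3 Rad21 counts with water against 18.5, 12.5 and 14.1 with the mixture.

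Smc3, present in every form of the ring, had 99, 118 and 95 counts with water against 81, 96 and 71 with the mixture. Its CPM was 356, 396 and 335 against 313, 318 and 276, again without overlap, although the gap between the groups was small. The log2 ratio was -0.26 (-0.51 to -0.01), and the interval on read pairs, from -0.61 to 0.09, held 0. Smc1a had 28, 42 and 24 counts with water against 20, 47 and 32 with the mixture. These overlap widely, with a log2 ratio of 0.15 (-0.28 to 0.57) that ranged from -0.11 (without phthalate oocyte 2) to 0.39 (without water oocyte 2) with 1 oocyte left out. It was -0.0058 without water oocyte 3 and 0.37 without phthalate oocyte 1.

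The 6 subunits below the filter showed overlapping oocytes. The log2 ratio was -0.36 (-1.27 to 0.53) for Smc1b, 0.07 (-0.77 to 0.91) for Stag1 and -0.07 (-1.02 to 0.88) for Stag2. Stag1 had 15 counts in phthalate oocyte 1 and between 5 and 10 in the other oocytes, and the ratio of Stag1 was -0.62 without that oocyte. With 1 oocyte left out, that of Stag2 ranged from -0.39 (without phthalate oocyte 2, and likewise without water oocyte 2) to 0.23 (without water oocyte 3), and it was 0.05 with ERCC scaling. That of Smc1b was -0.68 if phthalate oocyte 3 was left out and -0.10 if phthalate oocyte 2 was. For Rad21l, 6 counts against 2 gave -1.51 (-4.85 to 0.97), which was -0.49 without water oocyte 1 and -2.12 without water oocyte 2. No ratio is given for Rec8 and Stag3, which were at or under 3 counts in both groups.

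**Figure D3:**
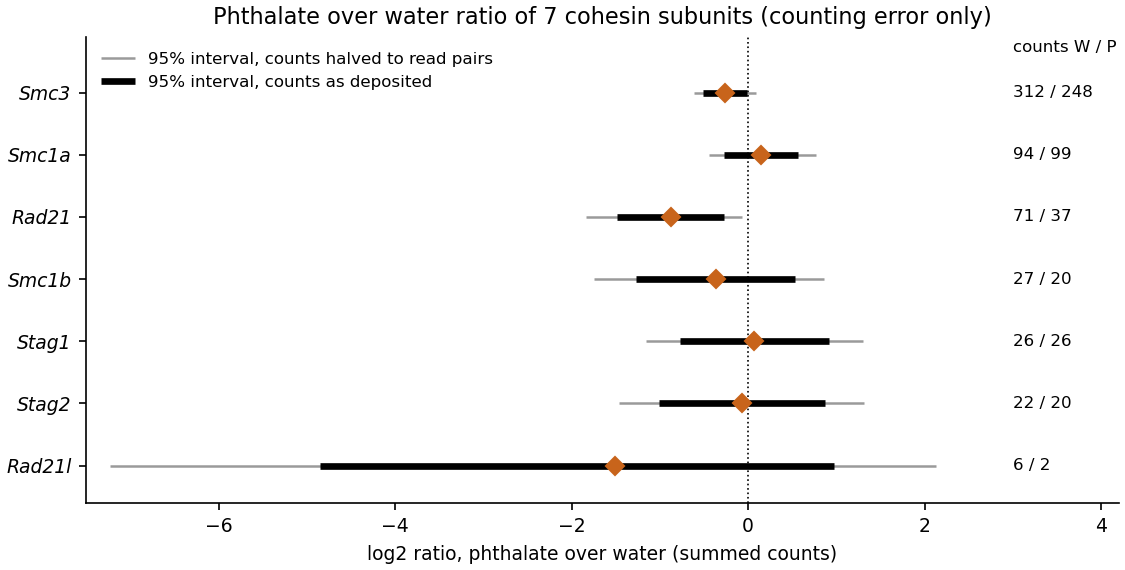
Log2 ratio of phthalate over water from summed counts (x axis, diamonds) for the 7 subunits with more than 3 counts in a group, with 95% counting intervals on deposited counts (thick) and on read pairs (thin). Of the 7, Rad21 alone has both intervals below 0.

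With 1 sample a group, a gene is called here when it differs by at least 1.5-fold. Of the 3 subunits that passed the filter, 1 (Rad21) was at least 1.5-fold lower, beside 8.14% of the 4644 genes, and 0 were at least 1.5-fold higher, beside 6.96%. Rad21 has a mean count of 18, and of the 2556 genes between 10 and 30, a range chosen after the data were seen, 12.0% were at least 1.5-fold lower. In that range 99 genes had a ratio as low as that of Rad21 or lower, and 121 did over all genes that passed. At 2-fold none of the 3 was lower, beside 1.64% of genes. The read-pair interval lay below 0 for 1 of 3 (Rad21), beside 4.41%. The 3 phthalate oocytes lay below the 3 water oocytes for 2 of 3 (Rad21 and Smc3), beside 5.00%, and above them for 0 of 3, beside 5.15%. Counts out of 3 genes are too small to set the cohesin subunits apart from other genes.

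All 9 subunits together had 176, 212 and 170 counts with water against 145, 178 and 131 with the mixture. That is 633, 712 and 599 CPM against 560, 590 and 510, without overlap. The log2 ratio of the sums was -0.23 (-0.41 to -0.04), and the read-pair interval, from -0.48 to 0.03, held 0. Smc3 gave 312 of the 558 water counts and 248 of the 454 phthalate counts, and the ratio was -0.18 without Smc3 and -0.15 without Rad21.

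Cohesin is loaded by NIPBL with MAU2, released by WAPL with PDS5 proteins, and made cohesive by the acetyltransferases ESCO1 and ESCO2 and by sororin (Cdca5). Of these 10 genes, including Hdac8 and Ctcf, 7 passed the filter, 3 with a ratio above 0 and 4 below, and the median log2 ratio was -0.0094 beside 0.0089 over all genes. The median was 0.17 without phthalate oocyte 2 and 0.22 without phthalate oocyte 3. Nipbl, the loader's large subunit, had 144, 141 and 130 CPM with water against 209, 222 and 198 with the mixture. It was 1.52-fold higher (log2 ratio 0.60, 0.26 to 0.95), with all phthalate oocytes above all water oocytes. Cdca5, which counters release of the ring, had 468, 490 and 430 CPM against 564, 564 and 782, a log2 ratio of 0.45 (0.26 to 0.64), also without overlap. The ratio of Cdca5 was 0.28 without phthalate oocyte 3 and 0.55 without phthalate oocyte 2.

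Esco2, the acetyltransferase of S phase, overlapped between the groups, with 273 and 258 counts and a log2 ratio of -0.01 (-0.26 to 0.24). Ctcf, the DNA-binding protein that stops sliding cohesin, had a ratio of 0.32 (-0.04 to 0.68), and its oocytes did not overlap after TMM scaling but did on plain totals. The ratio of Ctcf was 0.18 without phthalate oocyte 1 and 0.41 without phthalate oocyte 3. Mau2, the loader's partner subunit, was chosen for mention after its values were seen. It had 18, 27 and 19 counts with water against 3, 14 and 7 with the mixture, a log2 ratio of -1.34 (-2.08 to -0.65) opposite in sign to that of Nipbl. Nipbl was the 1 gene of the 7 at least 1.5-fold higher, beside 6.96% of all genes that passed, and Mau2 the 1 at least 1.5-fold lower, beside 8.14%. Mau2 passed the filter through the water oocytes, where it was higher, and of the phthalate oocytes only oocyte 2 reached 10 counts. A lower ratio of Mau2 was thus partly built in by the filter. Nipbl was under 1.5-fold without phthalate oocyte 2 and without water oocyte 3 (log2 ratio 0.56 in both), and Mau2 was at -1.93 without phthalate oocyte 2 and -0.98 without phthalate oocyte 1. All 3 phthalate oocytes lay above all 3 water oocytes for 3 of the 7 (Nipbl, Cdca5 and Ctcf), beside 5.15% of all genes that passed, and for 2 of the 7 on plain totals.

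Shugoshins (Sgo1, Sgo2a) bring the phosphatase PP2A to centromeres to shield cohesin, and separase (Espl1), held back by securin (Pttg1), cuts the kleisin at anaphase. Of 15 genes for protection and cleavage 9 passed the filter, 2 with a ratio above 0 and 7 below, with a median of -0.17. The median was 0.022 without water oocyte 2, -0.0079 without phthalate oocyte 3 and -0.058 with ERCC scaling, so its sign and size rest on single oocytes. Pttg1 had 343, 478 and 467 counts with water against 189, 357 and 321 with the mixture, a log2 ratio of -0.50 (-0.62 to -0.37). It was -0.30 without phthalate oocyte 1 and past 1.5-fold, between -0.62 and -0.59, without water oocyte 1, phthalate oocyte 2 or phthalate oocyte 3. Its CPM values overlapped between the groups after TMM scaling, with 1234 in water oocyte 1 and 1249 in phthalate oocyte 3, and did not on plain totals.

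Espl1 had 259, 359 and 335 CPM against 271, 265 and 265, a log2 ratio of -0.26 (-0.52 to 0.0042) with overlap. For Plk1, a kinase that helps to remove cohesin, the ratio was -0.17 (-0.48 to 0.13), and for Ppp2r5c, a regulatory subunit of PP2A, it was -0.21 (-0.68 to 0.25). With 1 oocyte left out, the ratio ranged from -0.25 to -0.080 for Plk1 and from -0.40 to 0.13 for Ppp2r5c. That of Plk1 was -0.058 with ERCC scaling. Sgo1, also mentioned after its values were seen, had 11, 16 and 18 counts with water against 8, 8 and 2 with the mixture. Its log2 ratio was -1.25 (-2.13 to -0.43), and the oocytes of the groups did not overlap. All phthalate oocytes lay below all water oocytes for Sgo1 alone of the 9, beside 5.00% of all genes that passed. Its paralog Sgo2a, also outside the rule for naming genes, had 10, 8 and 16 counts with water against 18, 16 and 10 with the mixture, which overlap, and a log2 ratio of 0.44 (-0.23 to 1.13). Of the 9 genes, Sgo1 alone was at least 1.5-fold lower, beside 8.14% of all genes that passed, and 0 were at least 1.5-fold higher, beside 6.96%. Sgo1 passed the filter through the water oocytes, where it was higher, and all 3 phthalate oocytes were under 10 counts. A lower ratio was thus partly built in by the filter.

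**Figure D4:**
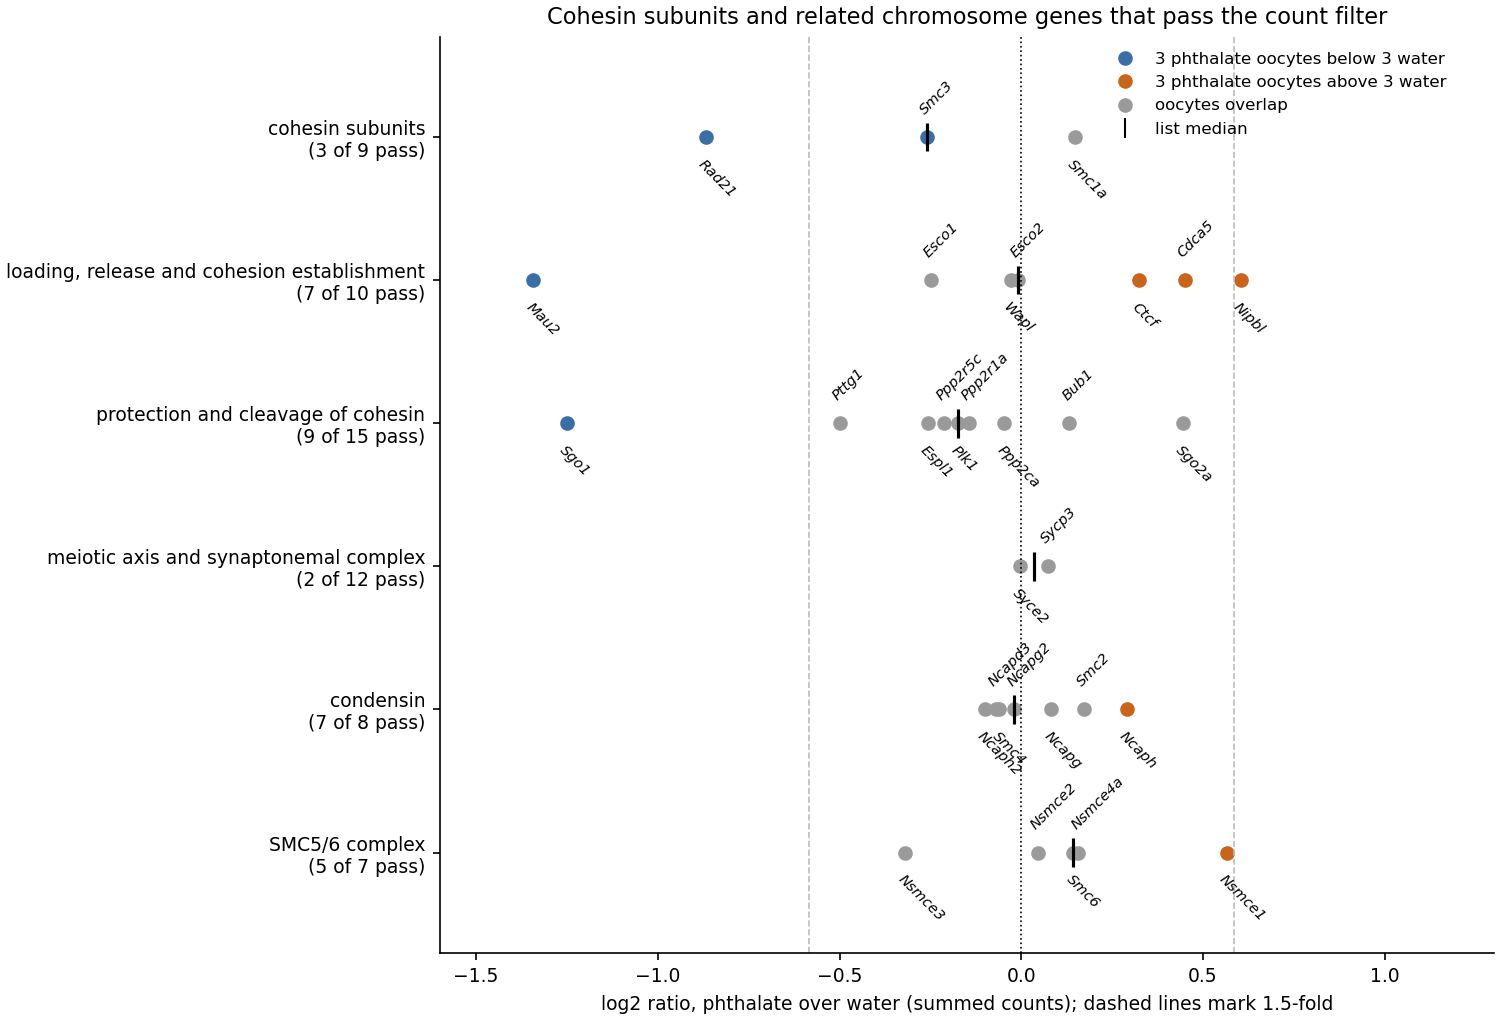
Log2 ratio of phthalate over water (x axis) for the genes of each list that pass the count filter (points, coloured by whether the oocytes of the groups overlap in CPM), with list medians (bars). Mau2, Sgo1 and Rad21 lie beyond 1.5-fold on the low side and Nipbl on the high side. Mau2 and Sgo1 passed the filter through the water oocytes, where they are higher.

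Genes listed for the meiotic chromosome axis, which is built on cohesin in prophase, and for the synaptonemal complex were mostly below the filter. Of 12 genes 11 are in the table, 9 had a count and 2 passed the filter. Syce2, a central element protein of the synaptonemal complex, had 167, 189 and 191 counts with water against 138, 206 and 175 with the mixture, a log2 ratio of -0.0037 (-0.18 to 0.17). Sycp3, an axis protein, had 32 counts in each group, a ratio of 0.07 (-0.68 to 0.83). It ranged from -0.31 (without water oocyte 3) to 0.34 (without water oocyte 1) with 1 oocyte left out. Syce3 and Spo11 had no count, which allows up to 3 counts in each group.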

How the data were processed

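The table the authors deposited holds raw counts in whole numbers, 1 row per gene symbol, and 92 ERCC rows. The submitters' processing notes list mm10, cutadapt, Trimmomatic, HISAT2 and DESeq2. The counting tool, annotation, strand and handling of molecular identifiers are not given in the sources used here. Even values prevailed among low counts (68.0% to 71.1% of values from 1 to 20), so intervals are also given on halved counts. ERCC rows stayed out of totals. CPM and ratios used totals scaled by TMM (edgeR 4.0.16, R 4.3.3) over genes that passed filterByExpr (minimum count 10, minimum total 15). Ratios are of counts summed over 3 oocytes, a sum of 0 set to 3 counts, with exact (Clopper-Pearson) intervals of 95%. Ratio code was tested on simulated data. Intervals and floors cover counting error only, and PCR copies are not independent molecules.

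Members and the 5 lists of related genes were chosen with earlier results of these data known. From each list up to 4 genes are named, those highest by mean count, if that is 10 or more, and Mau2, Sgo1, Sgo2a, Ncaph and Smc5 are named besides, chosen after their values were seen. Alternatives were other scalings (plain totals, DESeq2 1.42.0 size factors, ERCC), filters, folds, lengths, means over oocytes and each oocyte left out. Backgrounds by mean count, plain-total overlap, the CG-rich promoter share and the read-pair floor were added after the data were seen. Length, position and exons came from GENCODE M21, promoters from RefSeq.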

Additional observations from a re-analysis of the deposited data

How the results depend on the processing

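The log2 ratios of Rad21 (from -1.07 to -0.75), of Smc3 (from -0.31 to -0.14) and of the 9 subunits summed (from -0.28 to -0.11) stayed below 0 under all 10 alternatives each, a direction that leaving out an oocyte cannot turn where the oocytes of the groups do not overlap. ERCC scaling moved the median of all genes by 0.12 and the share of genes called at 1.5-fold that were higher from 46.1% to 66.7%. The number of subunits at least 1.5-fold lower went from 1 to 2 with no filter, since Rad21l then enters, and to 0 with a mean count of at least 20, which leaves Rad21 out, and to 0 at 2-fold. The share of genes called at 1.5-fold was 15.1%, 39.7% with no filter and 8.12% with a mean count of at least 20. The meiotic share of kleisins per length differed by -5.35 percentage points between the groups, and by -16.8 to 2.87 with 1 oocyte left out. Of the 9 places in the order of levels, 2 changed with the mean transcript length and 2 with no division by length, and 0 to 2 with 1 oocyte left out, where the 2 are Stag3 and Rec8, tied at 0 without phthalate oocyte 1. The median of the loading and establishment list ranged from -0.049 to 0.22 with 1 oocyte left out and was 0.16 with a mean count of at least 20. With 1 oocyte left out, the other medians ranged from -0.27 to 0.022 (protection and cleavage), -0.13 to 0.21 (axis and synaptonemal complex), -0.12 to 0.028 (condensin) and 0.027 to 0.23 (SMC5/6). Where no cause is named it was not tested. No paired analysis was possible because the source of the oocytes (animal, culture) is not named. Nothing in the labels says that a shared replicate number ties libraries together. With each group taken as 1 sample, no replicate block was used. For Smc1b, Stag1 and Stag2 a difference inside their counting intervals, from -1.27 to 0.91 at the widest on deposited counts and from -1.74 to 1.31 on read pairs, was not detectable at this depth, and Rad21l, Stag3 and Rec8 had at most 6 counts in a group.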

Other observations

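The 2 other SMC complexes of the nucleus were measured in the same oocytes. Condensin, which compacts chromosomes for division, had 7 of 8 genes past the filter, 3 with a ratio above 0 and 4 below, and a median log2 ratio of -0.02 that ranged from -0.12 to 0.028 with 1 oocyte left out. Smc4, a core condensin subunit, had 362, 505 and 466 counts with water against 348, 360 and 508 with the mixture, which overlap, and a ratio of -0.06 (-0.17 to 0.05). Its partner Smc2 had 69 and 74 counts, Ncapg 138 and 139, and Ncaph2 71 and 63 in the water and phthalate groups. With 1 oocyte left out, the log2 ratio ranged from -0.092 to 0.51 for Smc2. It ranged from -0.21 to 0.56 for Ncapg and from -0.26 to 0.28 for Ncaph2. Ncaph, the kleisin of condensin I, was singled out after its values were seen: its log2 ratio was 0.29 (-0.25 to 0.84), with the 3 phthalate oocytes above the 3 water oocytes. That held for 1 of the 7 condensin genes, beside 5.15% of all genes that passed.

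The SMC5/6 complex, which acts in DNA repair, had 5 of 7 genes past the filter, 4 with a ratio above 0, and a median of 0.14 that was 0.027 without water oocyte 1 and 0.044 without phthalate oocyte 3. Nsmce1, its RING-finger subunit, had 446, 272 and 360 CPM with water against 487, 477 and 630 with the mixture. All 3 phthalate oocytes lay above all 3 water oocytes for Nsmce1 alone of the 5, beside 5.15% of all genes that passed. Its log2 ratio was 0.56 (0.35 to 0.78). The ratio was past 1.5-fold, between 0.62 and 0.75, without water oocyte 1, phthalate oocyte 1 or phthalate oocyte 2. It was 0.40 without water oocyte 2 and 0.43 without phthalate oocyte 3. Smc6 had 159 and 167 counts in the water and phthalate groups, Nsmce2 221 and 217, and Nsmce3 80 and 61. Smc5, the partner of Smc6, lies below the count set for naming genes and was added after its values were seen: it had 2, 4 and 0 counts with water against 0, 4 and 0 with the mixture.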
